A study of Mus musculus with 4 samples.

Results

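Heat shock chaperones are proteins that bind unfolded clients, and many of them use ATP to help clients reach or regain their shape. Cells make most of them at rest, and the transcription factor HSF1 raises a subset when heat or other stress unfolds proteins. The Hsp70 and Hsp90 machines also fold kinases, receptors and other signalling proteins of blood cells. The 10 genes described here were chosen by symbol from 41214 Ensembl gene identifiers: Hspa1a, Hspa1b, Hspa8, Hsp90aa1, Hsp90ab1, Hsph1, Dnajb1, Hspb1, Hspe1 and Hspd1. The first 8 encode proteins of the cytosol and nucleus, whereas Hspd1 and Hspe1 encode the Hsp60 and Hsp10 chaperonin of the mitochondrial matrix, so the set is not purely cytosolic. All 10 passed the filter on low counts, and 15063 genes were tested.

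The counts come from RNA sequencing of megakaryocytes, which release platelets in the bone marrow. C57Bl/6 mice were 8 weeks old, and the cells were sorted as Lin- cKit+ CD41+ CD61+ from leg and arm bones. There were 4 groups of 1 library each: PF4-Cre Gfi1b KO, ROSA-Cre Gfi1b KO, PF4-Cre Gfi1b WT and ROSA-Cre Gfi1b WT. Gfi1b encodes a zinc finger repressor of megakaryocyte and red cell development. Cre in the first model carries the name of Pf4, a platelet factor gene active in megakaryocytes, and nothing more is labelled about ROSA-Cre. How many mice gave each library is not labelled either. Only the 2 Cre models repeat the genotype comparison. A p-value below therefore sets a fitted change against how far the models disagreed, moderated across genes.

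Gene counts totalled 59595680 in the PF4-Cre KO library, 21835165 in the ROSA-Cre KO, 61652843 in the PF4-Cre WT and 24869421 in the ROSA-Cre WT. The targeted gene had more reads in the libraries labelled knockout: Gfi1b was at 1401 and 2462 CPM in the PF4-Cre and ROSA-Cre KO libraries, against 169.6 and 238.3 CPM in the PF4-Cre and ROSA-Cre WT libraries (CPM are counts scaled to the TMM-normalised library size). A gene count sums all exons and the labels do not name the deleted ones, so this does not check the labels. Knockout means labelled knockout throughout. Of 10 megakaryocyte markers none was at 0, with Itga2b, which encodes CD41 of the sort gate, the most abundant. Their summed level was 7273 and 6201 CPM in the PF4-Cre and ROSA-Cre KO libraries, against 6701 and 9415 CPM in the PF4-Cre and ROSA-Cre WT libraries. The sum was thus higher in the knockout within PF4-Cre and lower within ROSA-Cre. By genotype 3 of the 10 rose and 2 fell, where 12.6% of all tested genes rose and 9.59% fell. In bulk libraries fewer cells of a type and less RNA per cell cannot be told apart.

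The sequence upstream of the stress-inducible Hsp70 genes is shown because this pair had the largest genotype changes of the 10 genes, and the duplicated copies are hard to tell apart. Hspa1a (chromosome 17, 34969190 to 34972156, minus strand, GRCm38) and Hspa1b (chromosome 17, 34956436 to 34959238, minus strand) are protein-coding genes of 1 exon each. Their coding sequences of 1926 and 1929 bases differ at 8 of 1926 aligned positions, and the 250 bases before their starts differ at 3. Capitals mark the short heat shock element GAANNTTC, a pair of the GAA units that HSF1 trimers contact (RefSeq, GRCm38.p6, minus strand, chr17:34972157-34972406 and chr17:34959239-34959488).
Hspa1a: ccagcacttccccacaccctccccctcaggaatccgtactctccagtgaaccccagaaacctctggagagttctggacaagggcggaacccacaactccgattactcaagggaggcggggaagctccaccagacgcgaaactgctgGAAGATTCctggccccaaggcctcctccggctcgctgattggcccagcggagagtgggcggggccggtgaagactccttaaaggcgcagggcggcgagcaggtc
Hspa1b: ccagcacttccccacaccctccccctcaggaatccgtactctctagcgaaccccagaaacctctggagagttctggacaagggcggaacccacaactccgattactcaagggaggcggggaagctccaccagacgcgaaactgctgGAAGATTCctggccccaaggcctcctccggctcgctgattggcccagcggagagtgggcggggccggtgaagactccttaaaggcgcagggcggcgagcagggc

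Hspd1 and Hspe1 lie head to head on chromosome 1 (55077835 to 55088243, minus strand, and 55088132 to 55091307, plus strand), and an element of 4 alternating GAA and TTC units lies upstream of both coding sequences. It is shown with the element of 3 units near the start of Hsph1 (chromosome 5, 149614287 to 149636376, minus strand), with the elements in capitals (RefSeq, GRCm38.p6, chr1:55088053-55088082, plus strand, and chr5:149636280-149636309, minus strand).
Hspe1: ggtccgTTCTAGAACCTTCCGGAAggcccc
Hsph1: tgctgcagaTTCTGGAAAGTTCtcctcagt
The chaperonin element begins 89 bases before the RefSeq start of Hspe1 and, read on the other strand, 144 bases before the RefSeq start of Hspd1. These starts lie further into each gene than the gene bounds given above, which are those of GENCODE. All 30 bases of the Hspe1 stretch and of the Hsph1 stretch lie in annotated exons. The Hsph1 element begins after its RefSeq starts, at base 16 or 37. Promoter windows of 300 bases were held for 7 of the 10 genes, and not for Hspa8, Hsp90aa1 and Hsp90ab1. The full element has 3 units (GAANNTTC followed by NNGAA, or the reverse complement). It was in 4 of the 10 windows of the 7 genes and in 0.603% of all 32851 windows. The genes were Hspd1, Hspe1 and Hsph1, 3 of the 7. Hspd1 and Hspe1 share 1 site, and the remaining windows with the element are overlapping ones of Hsph1 around 1 site. The short forms GAANNTTC and TTCNNGAA are each their own reverse complement and each part of the full element. They were in 7 of the 10 windows, from 6 of the 7 genes (all but Dnajb1), and in 15.1% of all windows. A match of letters does not show that HSF1 binds there.

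The inducible Hsp70 genes fell in knockout megakaryocytes of both models. Hspa1a had 1214 and 569 counts, or 20.1 and 25.4 CPM, in the PF4-Cre and ROSA-Cre KO libraries, against 4706 and 1348 counts, or 78.7 and 54.8 CPM, in the PF4-Cre and ROSA-Cre WT libraries. Both knockout values lay below both wild-type values. The log2 fold change was -1.55 (SE 0.22) with a Benjamini-Hochberg adjusted p of 0.0047 by the quasi-likelihood test of edgeR, lower in 2 of 2 models. Hspa1b had 1923 and 621 counts, or 31.8 and 27.7 CPM, in the PF4-Cre and ROSA-Cre KO libraries, against 6446 and 2017 counts, or 107.9 and 82.0 CPM, in the corresponding WT libraries. The log2 fold change was -1.67 (SE 0.14, adjusted p = 0.000565, edgeR) with the same direction in 2 of 2 models. Here too both knockout values lay below both wild-type values, as did those of Hsph1 and Hspe1. The share of all tested genes that separate in this way was not counted.

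Within PF4-Cre the ratio of KO to WT was 0.255 for Hspa1a (95% Clopper-Pearson interval 0.239 to 0.272, counting error only) and 0.295 for Hspa1b (0.28 to 0.31). Within ROSA-Cre it was 0.464 (0.42 to 0.512) and 0.338 (0.309 to 0.37). The fall of Hspa1a was thus larger in PF4-Cre beyond counting error, while whether the models differ cannot be tested with 1 library per group. Summed as 1 gene, the pair stood at 0.278 of WT within PF4-Cre and at 0.389 within ROSA-Cre. Hspa1a supplied 38.7% and 47.8% of the pair's counts in the PF4-Cre and ROSA-Cre KO libraries, against 42.2% and 40.1% in the PF4-Cre and ROSA-Cre WT libraries. Since 48.6% of the 100-base words of the Hspa1a transcript also occur in other genes, mainly Hspa1b, the split between the copies is uncertain and reads from the shared part may be missing from both. In fits that left out 1 library and, with it, the Cre model term, the Hspa1b call held (adjusted p 0.000436 to 0.0255). That of Hspa1a ended without the PF4-Cre KO library (0.057) or the PF4-Cre WT library (0.0973), and also when the term alone was left out (0.0736).

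Hspa8, which encodes the constitutive Hsc70, did not pass the test. It had 1911 and 1164 CPM in the PF4-Cre and ROSA-Cre KO libraries, against 2136 and 1363 CPM in the PF4-Cre and ROSA-Cre WT libraries (log2 fold change -0.19, SE 0.16, adjusted p = 0.434). The genotypes overlapped, and the PF4-Cre libraries were the higher ones in each. For every 100 counts of Hspa8 the inducible pair had 2.71 and 4.56 counts in the PF4-Cre and ROSA-Cre KO libraries, against 8.73 and 10.03 in the PF4-Cre and ROSA-Cre WT libraries. This ratio, formed inside each library and so free of scaling between libraries, was lower in both knockouts. In Hspa8 62.8% of the 100-base words recur in other genes, mostly unnamed gene models, so its level is uncertain as well.

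**Figure D1:**
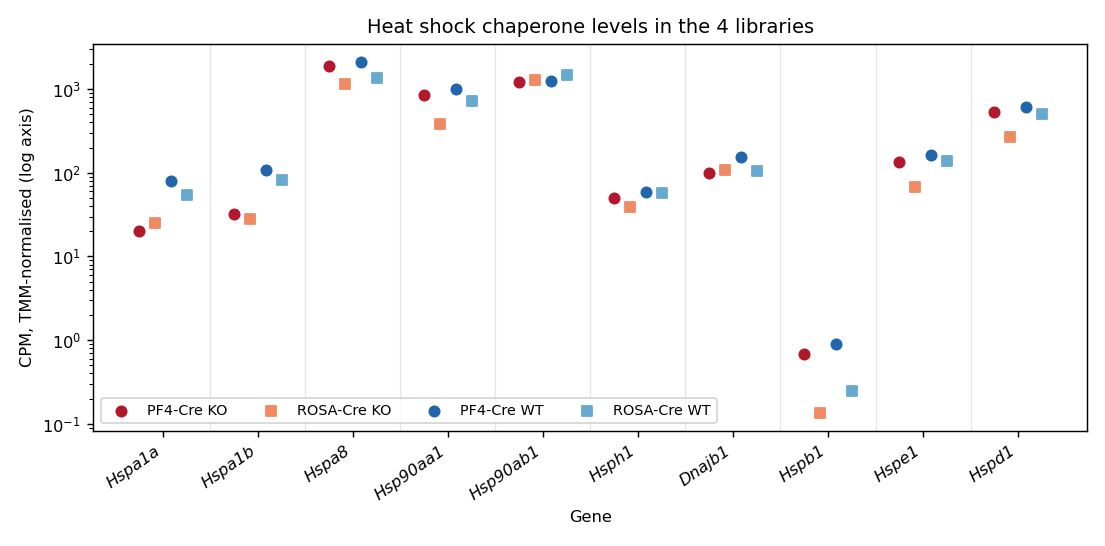
CPM (log axis, TMM-normalised) of the 10 genes, 1 point per library, with circles for PF4-Cre and squares for ROSA-Cre, KO in reds and WT in blues. Hspa1a and Hspa1b have both KO points below both WT points, as do Hsph1 and Hspe1. Hsp90ab1 lies between 1233 and 1473 CPM in every library and Hspb1 stays below 1 CPM.

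The co-chaperones of Hsp70 among the 10 genes did not pass the test of genotype. Dnajb1, the Hsp40 J protein that loads clients onto Hsp70 and stimulates its ATPase, had 100.5 and 107.8 CPM in the PF4-Cre and ROSA-Cre KO libraries, against 156.3 and 105.7 CPM in the PF4-Cre and ROSA-Cre WT libraries. The PF4-Cre WT library was high and the other three were alike (log2 fold change -0.31, SE 0.17, adjusted p = 0.235). Within PF4-Cre its KO to WT ratio was 0.643 (interval 0.622 to 0.664), and within ROSA-Cre it was 1.02 (0.965 to 1.079), so it was lower in PF4-Cre and within counting error of no difference in ROSA-Cre. Hsph1, the Hsp110 nucleotide exchange factor of Hsp70, had 50.01 and 38.6 CPM in the PF4-Cre and ROSA-Cre KO libraries, against 58.8 and 56.7 CPM in the PF4-Cre and ROSA-Cre WT libraries. Both knockout values were the lower ones, without a call (log2 fold change -0.39, SE 0.14, adjusted p = 0.0961). Hspb1, the small heat shock protein Hsp25 of the mouse, was low, and in ROSA-Cre near the floor of 3 counts, with 41 and 3 counts in the PF4-Cre and ROSA-Cre KO libraries, against 53 and 6 counts in the PF4-Cre and ROSA-Cre WT libraries. Its KO to WT ratios of 0.764 (interval 0.496 to 1.171) and 0.549 (0.0889 to 2.573) left a difference not detectable at this depth, and 56.3% of its 100-base words also occur in a pseudogene, Hsp25-ps1.

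The Hsp90 isoforms differed in their values. Hsp90aa1, the stress-responsive alpha form, had 840.1 and 378.4 CPM in the PF4-Cre and ROSA-Cre KO libraries, against 1010.0 and 722.8 CPM in the PF4-Cre and ROSA-Cre WT libraries (log2 fold change -0.60, SE 0.19, adjusted p = 0.0577). The ROSA-Cre KO library was far below the rest, and the call was missed. Within ROSA-Cre the KO to WT ratio was 0.523 (interval 0.51 to 0.537), within PF4-Cre it was 0.832 (0.822 to 0.842). Hsp90ab1, the constitutive beta form, had 1233 and 1288 CPM in the PF4-Cre and ROSA-Cre KO libraries, against 1251 and 1473 CPM in the PF4-Cre and ROSA-Cre WT libraries (log2 fold change -0.11, SE 0.16, adjusted p = 0.666). Hsp90aa1 stood at 68.1 and 29.4 counts per 100 counts of Hsp90ab1 in the PF4-Cre and ROSA-Cre KO libraries, against 80.7 and 49.1 in the PF4-Cre and ROSA-Cre WT libraries. The isoforms share 76.6% of aligned coding bases, but no 100-base word of Hsp90ab1 recurs in another gene, whereas 47.5% of those of Hsp90aa1 do, mostly in unnamed gene models.

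The mitochondrial chaperonin genes were lower mainly in the ROSA-Cre knockout. Hspd1 had 539.8 and 265.9 CPM in the PF4-Cre and ROSA-Cre KO libraries, against 608.6 and 500.6 CPM in the PF4-Cre and ROSA-Cre WT libraries (log2 fold change -0.54, SE 0.19, adjusted p = 0.0801), and did not pass. Hspe1 had 135.8 and 68.2 CPM in the PF4-Cre and ROSA-Cre KO libraries, against 161.9 and 137.3 CPM in the PF4-Cre and ROSA-Cre WT libraries. It passed narrowly (log2 fold change -0.63, SE 0.18, adjusted p = 0.0496, edgeR), although the PF4-Cre KO and ROSA-Cre WT libraries were almost level. Within PF4-Cre the KO to WT ratio was 0.839 for Hspe1 (interval 0.814 to 0.864) and 0.887 for Hspd1 (0.874 to 0.9). Within ROSA-Cre Hspe1 stood at 0.496 (0.467 to 0.527) and Hspd1 at 0.531 (0.515 to 0.548). The call of Hspe1 ended when the Cre model term was left out (adjusted p = 0.517) and when any one library was left out with it (0.0971 to 0.951).

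The divergently transcribed chaperonin pair, which shares the heat shock element printed above, kept a narrow ratio in every library. Hspe1 had 25.2 and 25.6 counts per 100 counts of Hspd1 in the PF4-Cre and ROSA-Cre KO libraries, against 26.6 and 27.4 in the PF4-Cre and ROSA-Cre WT libraries. Per kilobase of exon Hspe1 stood at 0.451 and 0.459 of Hspd1 in the PF4-Cre and ROSA-Cre KO libraries, against 0.477 and 0.492 in the PF4-Cre and ROSA-Cre WT libraries. Their first exons overlap by 112 bases on opposite strands, and the strand setting of the counting is not given in the sources used here. The pseudogene Hspd1-ps3 was counted at 5.43 and 4.79 per 100 Hspd1 counts in the PF4-Cre and ROSA-Cre KO libraries, against 5.57 and 3.99 in the PF4-Cre and ROSA-Cre WT libraries. These shares were close within PF4-Cre and further apart within ROSA-Cre.

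**Figure D2:**
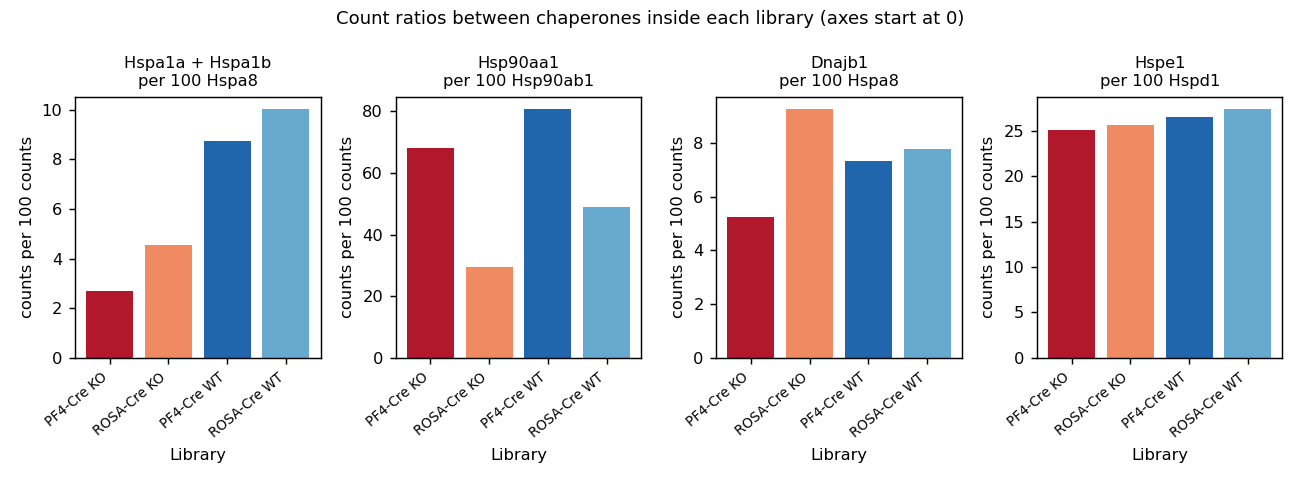
Counts of one chaperone per 100 counts of another inside each library, in 4 panels, with bars for the PF4-Cre KO, ROSA-Cre KO, PF4-Cre WT and ROSA-Cre WT libraries. The inducible Hsp70 pair stands at 2.71 and 4.56 per 100 Hspa8 counts in the KO libraries and at 8.73 and 10.03 in the WT libraries, while Hspe1 per 100 Hspd1 stays between 25.2 and 27.4.

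Over the 10 genes, 3 fell and 0 rose in knockout libraries, where 22.2% of all tested genes passed, 9.59% lower and 12.6% higher. Their median log2 fold change was -0.49, beside -0.02 over all genes tested, and the fitted value was below 0 for 10 of 10. Within PF4-Cre, 3 of the 10 were at least 1.5-fold lower in the knockout (Hspa1a, Hspa1b and Dnajb1), where 8.32% of tested genes were, and the median log2 ratio was -0.26. Within ROSA-Cre, 6 were (Hspa1a, Hspa1b, Hsp90aa1, Hspb1, Hspe1 and Hspd1), where 18.1% of tested genes were, and the median was -0.805. Hspb1 is among these from 3 against 6 counts, a difference not detectable at this depth, and with a pseudocount of 5 the count was 5 without it. Scaled by total gene counts, Dnajb1 within PF4-Cre was inside 1.5-fold, at a log2 ratio of -0.571. At least 1.5-fold higher stood 0 of the 10 in either model, where 16.7% and 22.2% of tested genes did. Hspa1a and Hspa1b were past 1.5-fold in both. At 2-fold, 2 were lower in PF4-Cre (the inducible pair), where 2.97% of tested genes were lower and 9.81% higher. In ROSA-Cre 3 were (the pair and Hspe1), where 7.73% were lower and 13.6% higher.

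**Figure D3:**
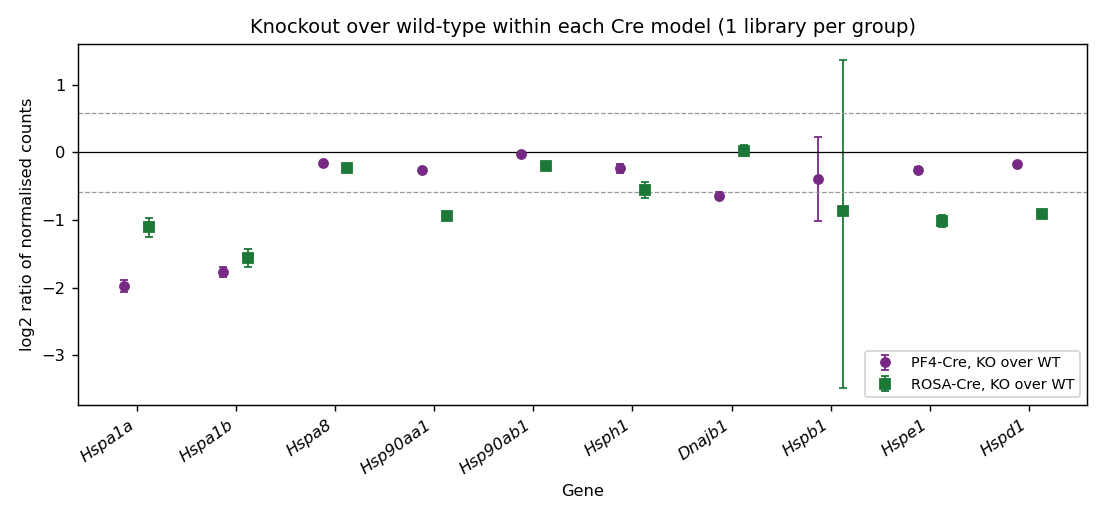
log2 ratio of normalised counts, KO over WT, for each gene within PF4-Cre (circles) and ROSA-Cre (squares), with 95% Clopper-Pearson intervals that cover counting error only and dashed lines at 1.5-fold. Hspa1a and Hspa1b lie below -1 in both models, Hsp90aa1, Hspe1 and Hspd1 lie lower in ROSA-Cre than in PF4-Cre, and Dnajb1 lies below 0 in PF4-Cre only.

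Levels between genes were compared per length, as TPM-like values on union exon lengths. Hsp90ab1 had the highest mean over the 4 libraries (1213), followed by Hspa8 (1075), Hsp90aa1 (527) and Hspd1 (508). Hsp90ab1 and Hspa8 changed places between models: Hspa8 was higher in the PF4-Cre KO (1352 against 1251 for Hsp90ab1) and the PF4-Cre WT library (1400.0 against 1176), and lower in the ROSA-Cre KO (724 against 1148) and the ROSA-Cre WT library (824 against 1277). The order of these genes is uncertain, as it rests on the lengths used. The union of exons is 4301 bases for Hspa8 and 2999 for Hsp90ab1, while their coding transcripts compared above have 2394 and 2520. Union lengths thus lower Hspa8 more. Reads of Hspa8 may also be missing, as 62.8% of its 100-base words recur in other genes, against 0% for Hsp90ab1. Hspe1 (239), Dnajb1 (102), Hsph1 (19.6) and Hspb1 (1.35) ranked lower. Taken singly, the inducible genes averaged 61.4 for Hspa1b and 41.6 for Hspa1a, each below Dnajb1 in each library. Of their 100-base words 49.9% and 48.6% recur in other genes, against 0% for Dnajb1, so this order is uncertain as well. Summed, the pair had more counts than Dnajb1 in the PF4-Cre and ROSA-Cre WT libraries (11152 and 3365 against 9344 and 2601). It had fewer in the KO libraries (3137 and 1190 against 6078 and 2414). Union exon lengths are 2967, 2803 and 3204 bases for Hspa1a, Hspa1b and Dnajb1. All 10 together took 0.494% and 0.345% of gene counts in the PF4-Cre and ROSA-Cre KO libraries, against 0.54% and 0.445% in the PF4-Cre and ROSA-Cre WT libraries.

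The comparison of the Cre models asked whether the chaperones stood at the same level in PF4-Cre and ROSA-Cre libraries once genotype was in the model. Hspa8 was higher in PF4-Cre (log2 fold change 0.68, SE 0.17, adjusted p = 0.0319, edgeR), by 1.64-fold among knockouts and 1.57-fold among wild types. Hsp90aa1 was higher too (0.82, SE 0.19, adjusted p = 0.0263), by 2.22-fold among knockouts and 1.4-fold among wild types. No other gene of the 10 passed, where 18.7% of all tested genes did, 10.4% higher and 8.33% lower, and the 10 had a median of 0.46 beside -0.02 over all genes tested. Hspd1 (0.65, SE 0.19, adjusted p = 0.052) and Hspe1 (0.61, SE 0.18, adjusted p = 0.0579) missed the call, and Hspb1 had 2.03 (SE 0.62, adjusted p = 0.0606). Among knockouts 5 of the 10 were at least 1.5-fold higher in PF4-Cre (Hspa8, Hsp90aa1, Hspb1, Hspe1 and Hspd1) and 0 lower, where 16.8% and 17.6% of tested genes were. Among wild types 2 were higher (Hspa8 and Hspb1) and 0 lower, where 16.7% and 15.3% were. At 2-fold, 3 were higher among knockouts (Hsp90aa1, Hspb1 and Hspd1; background 7.24% higher and 7.58% lower) and 1 among wild types (Hspb1; 6.67% and 6.53%). Both calls ended when the genotype term was left out (adjusted p 0.359 for Hspa8 and 0.454 for Hsp90aa1), when 1 library was left out with it (0.393 to 0.991 and 0.347 to 0.991) and after a correction for GC content and length (0.13 and 0.204). The log2 fold change in the fits without 1 library was 0.57 to 0.81 for Hspa8 and 0.36 to 1.30 for Hsp90aa1, and after the correction 0.50 and 0.46. The PF4-Cre libraries were also the deeper ones, and depth and the Cre model cannot be told apart in this design.

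Among 8 tested heat shock factors and genes that feed back on them, 1 fell and 0 rose in knockouts, near the 9.59% of all tested genes that fell and the 12.6% that rose, with a median log2 fold change of -0.27 beside -0.02 over all genes tested. Hsf1 had 36.6 and 40.9 CPM in the PF4-Cre and ROSA-Cre KO libraries, against 43.4 and 51.4 CPM in the PF4-Cre and ROSA-Cre WT libraries, lower in both knockouts but without a call (log2 fold change -0.29, SE 0.14, adjusted p = 0.179). The gene that fell was Fkbp4 (log2 fold change -0.67, SE 0.17), an immunophilin of Hsp90 and steroid receptor complexes that also stands among the Hsp90 co-chaperones. Of those 18, 4 fell and 0 rose, with a median of -0.27: Fkbp5 (-0.79, SE 0.13), Nudc (-0.64, SE 0.13), Fkbp4 and Ptges3, the p23 that stabilises the closed clamp of Hsp90 (-0.52, SE 0.14). Cdc37, which brings kinases to Hsp90, did not pass (-0.29, SE 0.12, adjusted p = 0.118).

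Of 16 J proteins, the partners of Hsp70, 3 rose and 2 fell, with a median of 0.02. These counts are near the background of 12.6% higher and 9.59% lower. Dnaja1, a cytosolic Hsp40, had 224.1 and 169.0 CPM in the PF4-Cre and ROSA-Cre KO libraries, against 170.7 and 95.9 CPM in the PF4-Cre and ROSA-Cre WT libraries (log2 fold change 0.60, SE 0.14, adjusted p = 0.0252), and Dnajb4, a close relative of Dnajb1, rose by 0.65 (SE 0.13). Dnajb5, named after its value was seen, rose by 1.81 (SE 0.48) from few reads. It had 93 and 107 counts in the PF4-Cre and ROSA-Cre KO libraries, against 44 and 16 in the PF4-Cre and ROSA-Cre WT libraries. Dnajc2, the ribosome-bound zuotin-related factor, and Dnajc9, a histone co-chaperone, fell by 0.58 and 0.59. Among 11 exchange and release factors 1 rose, the Hsp110 relative Hspa4l (0.49, SE 0.12), and 2 fell, Bag1 (-0.56, SE 0.12) and Hspbp1 (-0.50, SE 0.14). Of 9 tested relatives of Hsp70 and small heat shock proteins 2 rose and 1 fell, with Hspb8 higher at 5.0 and 6.3 CPM in the PF4-Cre and ROSA-Cre KO libraries, against 2.66 and 2.64 CPM in the PF4-Cre and ROSA-Cre WT libraries, Hspa12a higher at 94 and 30 counts in the KO libraries against 6 and 1 in the WT libraries and the mitochondrial Hsp70 gene Hspa9 lower (-0.54, SE 0.14).

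Hspa9 works with Hspd1 and Hspe1 in the matrix, and of 16 mitochondrial chaperone and protease genes 3 fell and 0 rose, Hspa9, its exchange factor Grpel1 (-0.47, SE 0.13) and the protease subunit Clpp (-0.55, SE 0.15), with a median of -0.24. Of all tested genes 9.59% fell and 12.6% rose, the background for this list and the 3 that follow. In 14 genes of the cytosolic chaperonin TRiC and its partner prefoldin 5 fell and 0 rose, with a median of -0.46, among them Tcp1 (-0.57, SE 0.14), Cct2 (-0.53, SE 0.14) and Pfdn6 (-0.70, SE 0.15). Of 31 proteasome genes 12 fell and 0 rose (median -0.42), among them Psmb3 (-0.60, SE 0.13), and of 16 chaperones of the endoplasmic reticulum 14 fell and 0 rose (median -0.71), among them Manf (-1.04, SE 0.20) and P4hb (-0.77, SE 0.16). The largest fall in these 4 lists was that of Sdf2l1, a partner of the endoplasmic reticulum Hsp70, at -1.56, beside -1.67 for Hspa1b and -1.55 for Hspa1a.

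Of 15 other genes that heat shock induces in many cells, 5 rose and 2 fell, where 12.6% of all tested genes rose and 9.59% fell, with a median of 0.11. Those higher included Serpinh1, the collagen chaperone Hsp47 (log2 fold change 2.73, SE 0.49), the autophagy receptor gene Sqstm1 (0.58, SE 0.13) and Dnajb4, whereas Hmox1, the heme oxygenase, had 2.41 and 2.72 CPM in the PF4-Cre and ROSA-Cre KO libraries, against 6.36 and 9.39 CPM in the PF4-Cre and ROSA-Cre WT libraries (-1.56, SE 0.28), a fall as large as that of Hspa1a. The other gene that fell was Mt1, a metallothionein named after its value was seen (-0.95, SE 0.25). Over all 160 tested genes of the 11 lists beside the 10 chaperones, 44 fell and 15 rose. The excess of falls was not seen in most fits that left out 1 library and, for want of degrees of freedom, the Cre model term with it. In these fits few list genes were called, and most calls over all tested genes were higher. They therefore do not show whether the loss of the excess is particular to these lists. The share of the missing library and that of the missing term in this cannot be told apart.

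**Figure D4:**
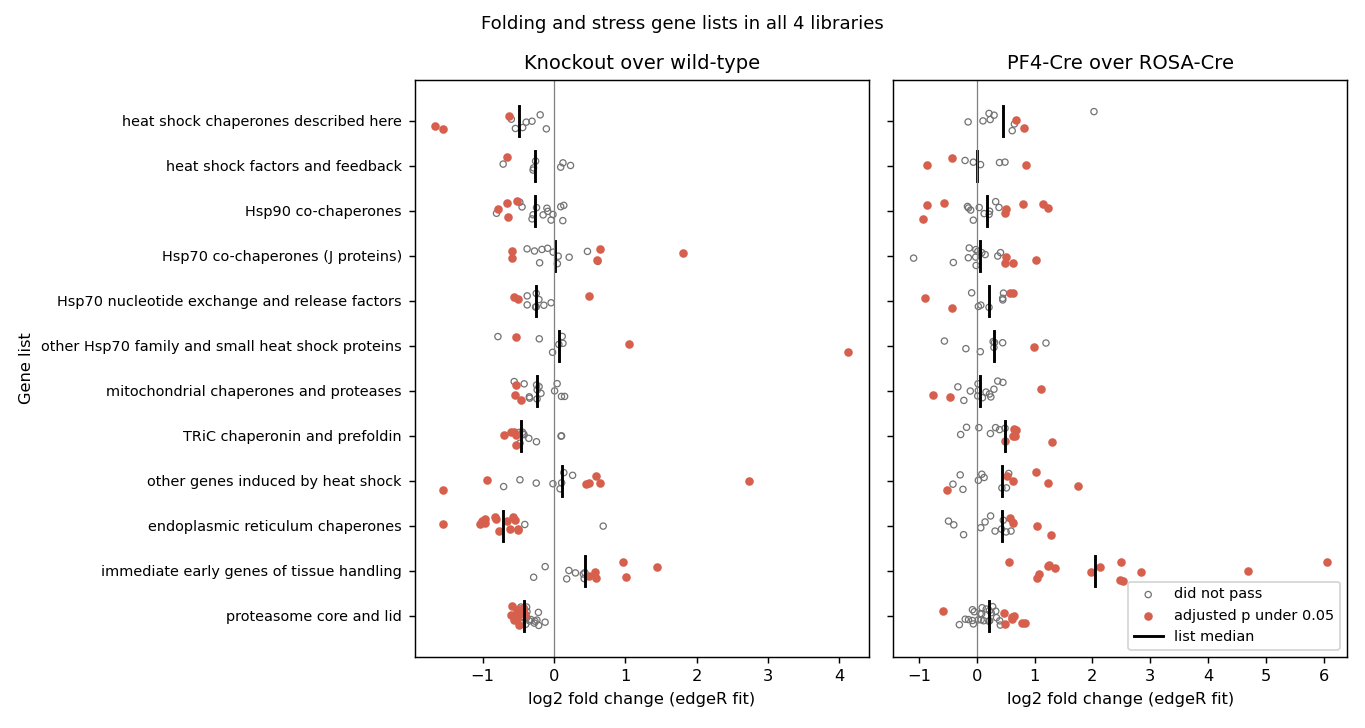
edgeR log2 fold changes of the 10 chaperones and 11 related lists, KO over WT on the left and PF4-Cre over ROSA-Cre on the right, 1 point per tested gene, filled where the adjusted p is under 0.05, with a bar at each list's median. The chaperone row has its lowest points at -1.67 and -1.55 on the left, and every immediate early gene is filled and above 0 on the right.

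Immediate early genes, transcription factors and feedback regulators that cells switch on within minutes of stimulation, moved with the Cre model in all cases. Of 14, 14 were higher in PF4-Cre and 0 lower (median log2 fold change 2.05), where 10.4% of all tested genes were higher and 8.33% lower. Over all lists this effect had 56 calls, and 0 or 1 by number in the fits without 1 library and the genotype term. Fos had 241.5 and 153.8 CPM in the PF4-Cre KO and WT libraries, against 7.64 and 7.27 CPM in the ROSA-Cre KO and WT libraries (4.69, SE 0.19), and Fosb differed by 2.84 (SE 0.14). By genotype 6 of the 14 rose and 0 fell, among them Zfp36, which encodes an mRNA decay factor (1.01, SE 0.17), and Ier3 (1.45, SE 0.26). The other 8 did not pass, Fos among them (0.42, SE 0.17, adjusted p = 0.113), and 2 of the 14 had fitted values below 0. The background by genotype was 12.6% higher and 9.59% lower. The part of these genes in the chaperone values was not tested.

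Markers of other cells differed between genotypes as well. The summed level of 10 neutrophil markers was 1056 and 489 CPM in the PF4-Cre and ROSA-Cre KO libraries, against 1727 and 1876 CPM in the PF4-Cre and ROSA-Cre WT libraries, with 0 rising and 4 falling and none at 0 in any library. That of 10 red cell markers was 200.4 and 329 CPM in the PF4-Cre and ROSA-Cre KO libraries, against 39.2 and 104 CPM in the PF4-Cre and ROSA-Cre WT libraries, with 4 rising and 3 falling. Hbb-bs gave 135.4 and 221.3 CPM of this in the PF4-Cre and ROSA-Cre KO libraries, against 7.3 and 37.7 CPM in the corresponding WT. The fitted value was below 0 for 6 of the 10 red cell markers, with a median of -0.19. Of all tested genes 12.6% rose and 9.59% fell, the background for the neutrophil and red cell lists. The 10 monocyte and macrophage markers summed to 124 and 64.3 CPM in the PF4-Cre and ROSA-Cre KO libraries, against 132 and 170.5 CPM in the PF4-Cre and ROSA-Cre WT libraries. T and NK, B and stroma markers summed to at most 35.25 CPM per list in any library. Endothelial markers summed to 459 and 462 CPM in the PF4-Cre and ROSA-Cre KO libraries, against 315 and 311 CPM in the WT libraries, and mast cell and basophil markers to 389 and 898 CPM, against 216 and 296.5 CPM. Gata2 made 302.8 and 789.0 CPM of the last sum in PF4-Cre and ROSA-Cre KO, against 152.6 and 212.8 CPM in the corresponding WT. That sum thus followed mostly 1 gene and does not measure mast cells or basophils. The part of other cells in the chaperone values was not tested.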

How the data were processed

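Sorted megakaryocytes of 4 groups with 1 library each were analysed. Per the labels' protocols, RNA from a MagMax-96 kit went into stranded, paired-end TruSeq mRNA libraries. Per the submitters' processing notes, the tools were DESeq, HTSeq, SAMtools and TopHat2 2.0.10, with builds GRCm38 and mm10. The authors deposited raw HTSeq counts per Ensembl gene, 1 table per library. Annotation release and strand setting: not given in the sources used here. The 5 category lines of each table stayed out of library sizes. Reads with no gene were 36.1%, 36.25%, 32.05% and 34.91% of uniquely aligned reads in the PF4-Cre KO, ROSA-Cre KO, PF4-Cre WT and ROSA-Cre WT libraries, and ambiguous reads 0.4485% to 0.532%. Alignments that were not unique, 22523015 to 73166767 per library, were not counted to genes.

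Symbols, coordinates and exon lengths came from GENCODE release M21 (GRCm38) and promoter windows from RefSeq (GRCm38.p6). The test was that of edgeR 4.0.16, run in R 4.3.3: TMM scaling, filterByExpr with genotype as the group and 10 as its minimum count, genotype and Cre model as terms, quasi-likelihood F-tests, and Benjamini-Hochberg adjustment at 0.05 over 15063 genes. Each gene had 1 residual and 6.25 prior degrees of freedom. A standard error is the fitted log2 change divided by the root of its F value. The procedure was tested on simulated data with the same spread for every gene and no Cre model effect, unlike these libraries. That run does not show how well it works here. Ratios within a model used normalised counts, and their log2 values a pseudocount of 1. The floor is 3 counts per library. Intervals and the floor cover counting error alone, as PCR copies were not marked by molecular identifiers. Where nothing says that libraries came from separate mice, p-values set a change only against the spread between these libraries. Every chaperone, Gfi1b and Hsf1 were named, along with up to 4 genes per list by the smallest p of genotype, up to 2 by that of the Cre model and the most abundant marker of a list. The genes and lists were chosen with earlier results of these data known. Alternatives included DESeq2 1.42.0 (size factors and Wald test), other filters and priors, a GC and length correction and the fit without each library.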

Additional observations from a re-analysis of the deposited data

Results flagged for a closer look

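Dnajb1 was lower in the knockout beyond counting error within PF4-Cre only. Its log2 ratio of knockout to wild type was -0.638 within PF4-Cre and 0.029 within ROSA-Cre, the second within counting error of 0. Its log2 ratio of PF4-Cre to ROSA-Cre was -0.101 among knockouts and 0.565 among wild types. Hspa1a crossed in the same way, at -0.34 among knockouts and 0.523 among wild types. The split between Hspa1a and Hspa1b is uncertain, and the summed pair had -0.035 among knockouts (ratio 0.976, interval 0.913 to 1.044) and 0.448 among wild types, so the crossing was not seen beyond counting error in the sum. With 1 library per group none of these differences was tested.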

How the results depend on the processing

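Both inducible Hsp70 genes stayed lower in knockouts under every alternative run, at log2 fold changes of -1.77 to -1.27 for Hspa1a (adjusted p 3.35e-09 to 0.0973) and -1.83 to -1.46 for Hspa1b (4.51e-17 to 0.0497). As 1 gene the pair had -1.61 (adjusted p = 0.00114). Of the 10 chaperones 3 were called by genotype, 5 with the DESeq2 Wald test (Hsp90aa1 and Hspd1 added) and 1 with the Cre model term left out (Hspa1b). The call of Hspe1 was also lost with no filter (0.119), at a mean of at least 5 CPM (0.0591), with the older quasi-likelihood method (0.0545), the robust prior (0.0605) and the GC and length correction (0.0517), which added Hsp90aa1 (0.0407) and Hsph1. All genes called by genotype numbered 3348 (56.87% higher), 1935 with no filter (72.66% higher) and 162 without the Cre model term (97.53% higher). For the Cre model, 2 of the 10 were called, 4 with the Wald test, 1 with no filter (Hspa8), 0 without the genotype term and 1 after the GC and length correction (Hspa1b). All genes called by Cre model numbered 2824 (55.59% higher), 1723 with no filter, 1 without the genotype term (2112 at an unadjusted p under 0.05) and 486 after the GC and length correction (35.6% higher). At 2-fold in place of 1.5-fold, 3 chaperones were past the limit within ROSA-Cre, 3 among knockouts and 1 among wild types, where a background of at least 5 CPM also left 1. Hsp90ab1 within PF4-Cre turned to 0.046 when scaled by total counts. With that scaling 2 chaperones were past 1.5-fold within PF4-Cre (Hspa1a and Hspa1b), as Dnajb1 moved to -0.571.

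Without each library in turn, the other term was left out as well, so the effects of these omissions cannot be told apart, and the lone library of a group was assumed to vary like the others. Genes called by genotype then numbered 509 to 883, chaperones 1 to 2 and list genes 3 to 12. For the Cre model the counts were 0 to 4, 0 to 0 and 0 to 1 by edgeR, with 577 to 2197 genes at an unadjusted p under 0.05. Log2 fold changes by genotype that turned in direction, none of them called, ranged over -0.588 to 0.18 for Hspa8, -0.221 to 0.0388 for Hsp90ab1 and -2.214 to 0.9974 for Hspb1. Those by Cre model ranged over -0.9883 to 0.9767 for Hspa1a, -0.7769 to 1.334 for Hspa1b, -0.0584 to 0.5086 for Hsph1 and -0.0768 to 0.5538 for Dnajb1. The causes were not tested. The Cre model term pairs the knockout and wild-type libraries of each model, so the fit without that term is the unpaired one; the labels number no replicates.

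With 1 library per group, no interaction of genotype and Cre model can be tested, and the p-values rest on 1 residual degree of freedom. Counts of Hspb1 in ROSA-Cre, at or near the floor, set the limit of depth.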
